A study of Mus musculus with 8 samples.

Results

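The Wnt family genes described here are the secreted Wnt ligands, their Frizzled and LRP receptors, the R-spondins with their LGR receptors, the secreted inhibitors of the Sfrp, Dkk and Wif1 type, the Axins, and the TCF/LEF transcription factors. Members were the protein-coding genes whose symbol in the GRCm38 annotation matched these family names, and the naming rule uses no measured value. The rule found 53 genes among the 49315 gene identifiers of the count table. Whole esophagus RNA came from 8 males, each 8 weeks old. EoE33 mice, 4 in number, carried a transgene that overexpresses IL-33, an alarmin cytokine, in the epithelium of the esophagus. The 4 wild type mice were littermates, and the labels give C57BL/6J as the strain of both groups. The promoter that drives the transgene is not given in the sources used here. The series concerns eosinophilic esophagitis, an eosinophil-rich inflammation of the esophagus, and the comparison asked which transcripts differ when IL-33 is overexpressed there.

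Wnt proteins are lipid-modified signals that act over short distances between neighbouring cells. When a Wnt binds a Frizzled together with LRP5 or LRP6, the Axin-based complex that destroys β-catenin is held back, and β-catenin enters the nucleus, where it works with TCF/LEF factors on target genes such as Axin2. R-spondins, through LGR4, LGR5 and LGR6, keep Frizzled receptors at the cell surface, while Sfrp, Dkk and Wif1 proteins restrain the pathway outside the cell. In stratified epithelia this pathway is known for its part in the upkeep of proliferating basal cells.

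Levels are CPM, counts per 1000000 counts of a library after scaling by TMM factors, and differences are log2 fold changes of EoE33 over wild type. The libraries held 17.73 to 22.27 (EoE33) and 22.18 to 24.07 (wild type) times 1000000 counts. Il33 was at 355 to 393 CPM in EoE33 and 99.8 to 165 CPM in wild type, higher in every EoE33 library. Some wild type libraries stood apart. In EoE33, 4 airway markers summed to 0.286 to 1.498 CPM and 4 liver markers to 0.41 to 3.45 CPM. Wild type replicate 3 held airway transcripts, with a sum of 437 CPM against 5.83 to 6.49 CPM in the other wild type libraries. Wild type replicate 1 held liver transcripts, with a sum of 132 CPM against 4.15 to 9.94 CPM. Mesothelial markers, genes of the lining of body cavities, summed to 31.4, 8.92, 103 and 93.5 CPM in wild type replicates 1 to 4, against 11.8 to 27.4 CPM in EoE33, and none of these 4 markers passed the test.

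The makeup of the tissue RNA differed between the groups, as measured with marker lists. Keratin and other squamous epithelial markers were abundant in every library. Basal keratinocyte markers summed to 16149 to 19884 CPM in EoE33 and 3501 to 5044 CPM in wild type, with 6 of 7 higher and Krt15 lower. Suprabasal keratinocyte markers summed to 25470.2 to 50865 CPM in EoE33 and 52542 to 92047 CPM in wild type, with 2 of 6 higher and 4 lower. Fibroblast markers summed to 2092 to 3049.8 CPM in EoE33 and 3972 to 4807 CPM in wild type, with 7 of 8 lower. Skeletal muscle markers summed to 5807 to 7699 CPM in EoE33 and 21144 to 23392 CPM in wild type, with 8 of 8 lower, and smooth muscle markers to 2005 to 2230.04 CPM in EoE33 and 3246 to 6499 CPM in wild type, with 4 of 6 lower. Schwann cell and enteric neuron markers summed to 12.1 to 38.004 CPM in EoE33 and 36.6 to 93.6 CPM in wild type, with 6 of 7 lower, and endothelial markers to 239 to 271 CPM in EoE33 and 207 to 317 CPM in wild type, with 1 of 6 higher and 3 lower. Leukocyte markers summed to 152 to 202 CPM in EoE33 and 46.2 to 105 CPM in wild type, with 6 of 9 higher, and T cell markers to 7.199 to 11.3 CPM in EoE33 and 1.84 to 9.12 CPM in wild type, with 2 of 6 higher. For comparison, 31.3% of all genes tested were higher and 32.1% lower in EoE33, so marker counts near these shares do not set a list apart. The T cell, endothelial, and Schwann cell and enteric neuron sums overlapped between groups. No marker of these lists was at 0 in all libraries. In bulk tissue, fewer cells of a type and less RNA per cell cannot be told apart, and the part of these shifts in the results on Wnt genes was not tested.

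**Figure D1:**
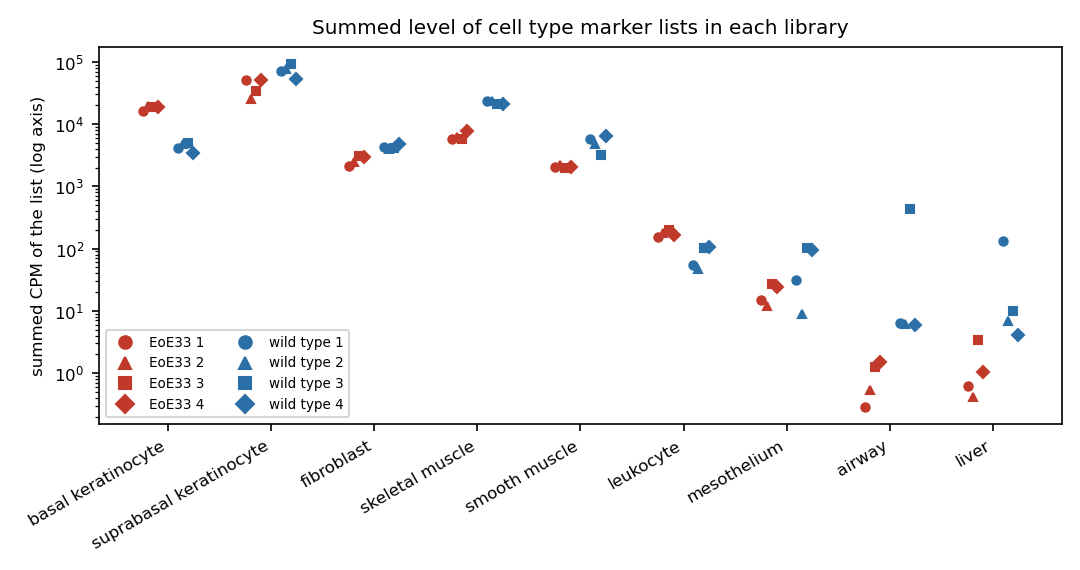
Summed CPM of each marker list (log axis) in the 4 EoE33 (red) and 4 wild type (blue) libraries, 1 symbol shape per replicate number. Basal keratinocyte sums lie higher and muscle and fibroblast sums lower in all EoE33 libraries, and wild type replicates 3 and 1 stand apart in airway and liver markers.

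Among the Wnt family genes that could be tested, lower levels in EoE33 were more common than higher ones. The share called in either direction was near that of all genes. Of the 53 members, 44 had enough counts to test, of which 9 were higher and 21 lower in EoE33 and 14 did not pass (edgeR quasi-likelihood test, Benjamini-Hochberg adjusted p under 0.05). The background was large: 63.4% of all 16760 genes tested were called, 31.3% higher and 32.1% lower. Among the members tested, 68.2% were called, 20.5% higher and 47.7% lower. Their median log2 fold change was −0.47, against −0.01 over all genes tested. The groups did not overlap in 24 of the 44 members tested, against 59.5% of all genes tested. EoE33 was the upper group in 9 of the 44 and the lower group in 15, and over all genes these shares were 29.6% and 29.9%. Without wild type libraries 1 and 3, 9 of 44 members tested were higher and 15 lower, against 25% and 25.9% of all genes. The test kept a gene that reached 0.45 CPM, before TMM scaling, in at least 4 libraries. Rspo4 and Lef1 reached it in all 4 libraries of EoE33 only, and Wnt10b, Wnt16, Fzd9, Lgr5 and Lgr6 in all 4 of wild type only. Such genes could pass through the group where they were higher, so the counts give no support of their own. The exact permutation test (two-sided, on log2(CPM + 0.5)) of a single gene cannot go below p = 0.0286, the value reached by every member named here as having groups that did not overlap.

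**Figure D2:**
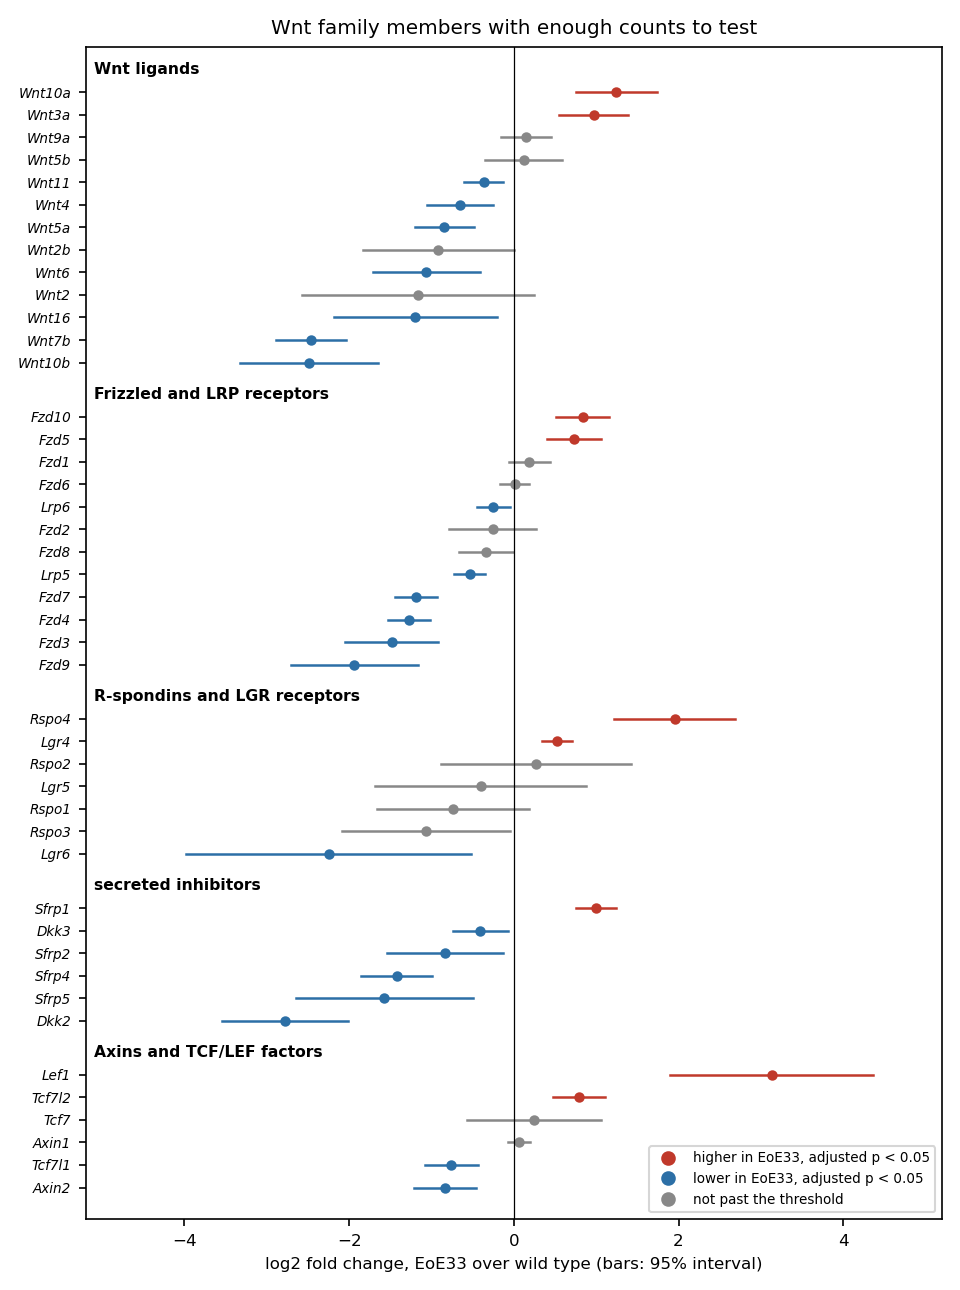
Log2 fold change of EoE33 over wild type with its 95% interval for the 44 tested members, grouped by role and coloured by call. Inhibitors lie on the left with the exception of Sfrp1, and the other role groups hold members on both sides of 0.

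Ligand transcripts as a pool were lower in EoE33, and their makeup shifted from Wnt7b toward Wnt10a. Of the 19 ligand genes, 13 were tested, of which Wnt3a and Wnt10a were higher, 7 were lower and 4 did not pass. That was 15.4% higher and 53.8% lower, against 31.3% and 32.1% of all genes tested. The median log2 fold change of the ligands tested was −0.85. Per kb of exon, which allows genes to be compared, the summed ligand level was 76.8 ± 8.85 in EoE33 and 127 ± 16.1 in wild type (CPM per kb, n = 4 each, SD), with no overlap between groups. On this scale Wnt7b (6.95 in EoE33 and 38.4 in wild type) and Wnt4 (42.0 in EoE33 and 66.0 in wild type) fell most. Wnt10a (13.1 in EoE33 and 5.50 in wild type) rose most. Wnt4 held the largest share of this pool in both groups, 54.2% ± 7.23 in EoE33 and 51.9% ± 1.71 in wild type (n = 4 each, SD). Wnt7b held 8.97% ± 1.23 in EoE33 and 30.1% ± 1.21 in wild type, and Wnt10a held 17.4% ± 5.36 in EoE33 and 4.28% ± 0.723 in wild type (n = 4 each, SD). Per kb of exon, the order of these ligands was Wnt4, Wnt10a and Wnt7b in EoE33, and Wnt4, Wnt7b and Wnt10a in wild type. Neighbours in this order did not overlap. In CPM, without division by exon length, Wnt7b (26.5 to 42.9 CPM) and Wnt10a (25.9 to 41.8 CPM) overlapped in EoE33.

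**Figure D3:**
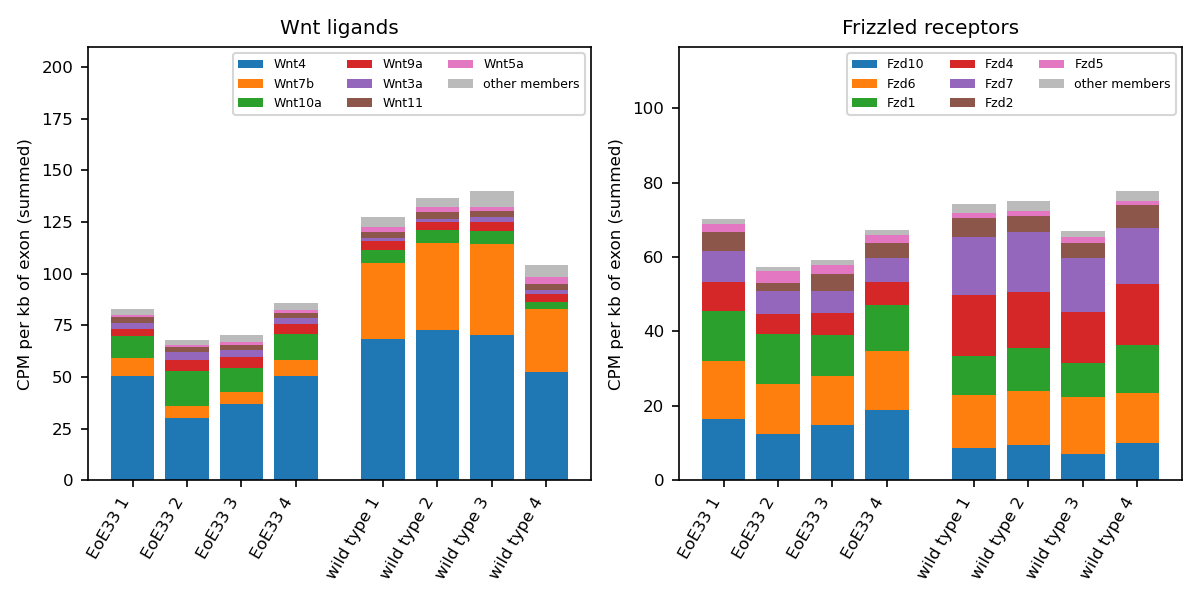
Stacked levels (CPM per kb of exon) of the Wnt ligand genes and of the Frizzled receptor genes in each library, EoE33 to the left. The ligand bars are shorter in EoE33, the Wnt7b part is thinner and the Wnt10a part thicker, and in the Frizzled bars Fzd10 is thicker and Fzd4 and Fzd7 are thinner.

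Wnt7b, a ligand expressed in many epithelia (ENSMUSG00000022382, chromosome 15 from 85535437 to 85582473, minus strand, GRCm38), had 42.9, 28.03, 26.5 and 38.7 CPM in EoE33 replicates 1 to 4 and 181, 207, 215 and 148 CPM in wild type replicates 1 to 4. The highest EoE33 library lay far below the lowest wild type library. Wnt7b fell 5.52-fold (log2 fold change −2.46 ± 0.19 SE, adjusted p = 8.01e-06 by edgeR), the smallest p among the members. Wnt10b, a ligand known from hair follicle and mammary tissue (ENSMUSG00000022996, chromosome 15 from 98770712 to 98778150), had 0.191, 0.644, 0.475 and 0.849 CPM in EoE33 and 2.76, 2.85, 4.104 and 2.36 CPM in wild type. It was low in every library, with 43 counts over the EoE33 libraries and 282 over the wild type libraries, and its groups did not overlap. The difference was −2.49 ± 0.37 on the log2 scale (SE; adjusted p = 0.000346 by edgeR).

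Wnt10a, a ligand needed for skin appendages, teeth and the upkeep of stratified epithelia (ENSMUSG00000026167, chromosome 1 from 74791516 to 74804179, plus strand), had 25.9, 41.8, 29.7 and 31.5 CPM in EoE33 and 15.7, 14.9, 15.2 and 8.44 CPM in wild type. Every EoE33 library lay above every wild type library, and wild type replicate 4 was the lowest. Wnt10a rose 2.37-fold (log2 fold change 1.25 ± 0.22 SE, adjusted p = 0.001 by edgeR). Wnt6 lies on the same strand 6.193 kb before Wnt10a (ENSMUSG00000033227, chromosome 1 from 74771892 to 74785322) and moved the other way. Wnt6 had 1.38, 0.878, 1.47 and 1.298 CPM in EoE33 and 1.91, 2.72, 3.98 and 1.97 CPM in wild type, with no overlap and a log2 fold change of −1.06 ± 0.29 (SE; adjusted p = 0.00985 by edgeR). Of 4 pairs of neighbouring Wnt genes less than 100 kb apart, both genes were tested only in this pair and in Wnt3a with Wnt9a. Wnt9b and Wnt3, and Wnt1 beside Wnt10b, had too few counts to test, so those pairs could not have both genes called. Both Wnt6 and Wnt10a were called, where 63.4% of all genes tested were called. In the pair Wnt3a and Wnt9a, 16.175 kb apart on opposite strands, Wnt3a rose and Wnt9a did not pass.

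Wnt3a, a ligand long used to activate β-catenin in culture (ENSMUSG00000009900, chromosome 11 from 59248033 to 59290752), had 8.93, 11.3, 8.97 and 7.79 CPM in EoE33 and 4.24, 3.87, 6.35 and 4.41 CPM in wild type. Its groups did not overlap, and it rose 1.96-fold (log2 fold change 0.97 ± 0.18 SE, adjusted p = 0.00146 by edgeR). Wnt9a averaged 15.3 ± 2.84 CPM in EoE33 and 13.8 ± 0.79 CPM in wild type (n = 4 each, SD), and its log2 fold change was 0.15 (95% interval −0.16 to 0.46, edgeR adjusted p = 0.369). Without EoE33 replicate 1, its lowest EoE33 library, the adjusted p was 0.0235 with a log2 fold change of 0.27.

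The most abundant ligand, Wnt4 (ENSMUSG00000036856, chromosome 4 from 137277489 to 137299726), is known from kidney and female reproductive tract development. It had 211, 127, 156 and 211 CPM in EoE33 and 286, 305, 296 and 220.3 CPM in wild type, and the groups were close but did not overlap. The difference was −0.65 ± 0.18 on the log2 scale (SE; adjusted p = 0.0105 by edgeR), and the adjusted p was 0.0801 without wild type libraries 1 and 3. Wnt5a, a ligand of β-catenin-independent signalling that is often made by mesenchyme (ENSMUSG00000021994, chromosome 14 from 28504750 to 28527448), had 10.3, 10.4, 14.2 and 12.1 CPM in EoE33 and 19.8, 19.3, 18.2 and 27.4 CPM in wild type. It was lower in all EoE33 libraries, with a log2 fold change of −0.85 ± 0.16 (SE; adjusted p = 0.00131 by edgeR). Wnt11, another ligand of β-catenin-independent signalling, averaged 9.78 ± 0.956 CPM in EoE33 and 12.6 ± 1.06 CPM in wild type (n = 4 each, SD) with a log2 fold change of −0.36 (adjusted p = 0.0129 by edgeR). Without wild type replicate 2, its highest library, the adjusted p of Wnt11 was 0.0524.

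Wnt16, a ligand known from bone and skin (ENSMUSG00000029671, chromosome 6 from 22288227 to 22298522), had 1.43, 0.234, 0.475 and 0.999 CPM in EoE33 and 1.78, 2.28, 1.82 and 1.41 CPM in wild type. EoE33 replicate 1 reached into the wild type range. Its log2 fold change of −1.20 passed narrowly (edgeR adjusted p = 0.0374). The call was lost without wild type replicate 1, 2 or 3 (edgeR adjusted p = 0.0686, 0.0957 and 0.0626) and without EoE33 replicate 2, 3 or 4 (0.0558, 0.104 and 0.0526).

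Wnt2b and Wnt2, ligands known from mesenchyme, did not pass and varied widely between mice. Wnt2b had 2.63, 2.52, 5.05 and 4.54 CPM in EoE33 and 5.601, 2.899, 9.18 and 10.2 CPM in wild type, with a log2 fold change of −0.92 (95% interval −1.84 to 0.01, edgeR adjusted p = 0.0762). Wild type replicates 3 and 4, where mesothelial markers were highest, were highest in Wnt2b, and wild type replicate 2 was lowest in each. Whether one accounts for the other was not tested. Without wild type replicate 2 the adjusted p of Wnt2b was 0.0127. Wnt2 averaged 0.411 ± 0.374 CPM in EoE33 and 0.949 ± 0.522 CPM in wild type (n = 4 each, SD; edgeR adjusted p = 0.13), and without EoE33 replicate 3 its log2 fold change was −2.03 (edgeR adjusted p = 0.02). For Wnt5b, with 2.23 CPM in EoE33 and 2.05 CPM in wild type, the log2 fold change was 0.12 (95% interval −0.34 to 0.59). The remaining 6 ligands had too few counts to test, with 28 counts in EoE33 and 17 in wild type for Wnt9b, 5 and 20 for Wnt1, and at most 5 per group for Wnt3, Wnt7a, Wnt8a and Wnt8b.

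**Figure D4:**
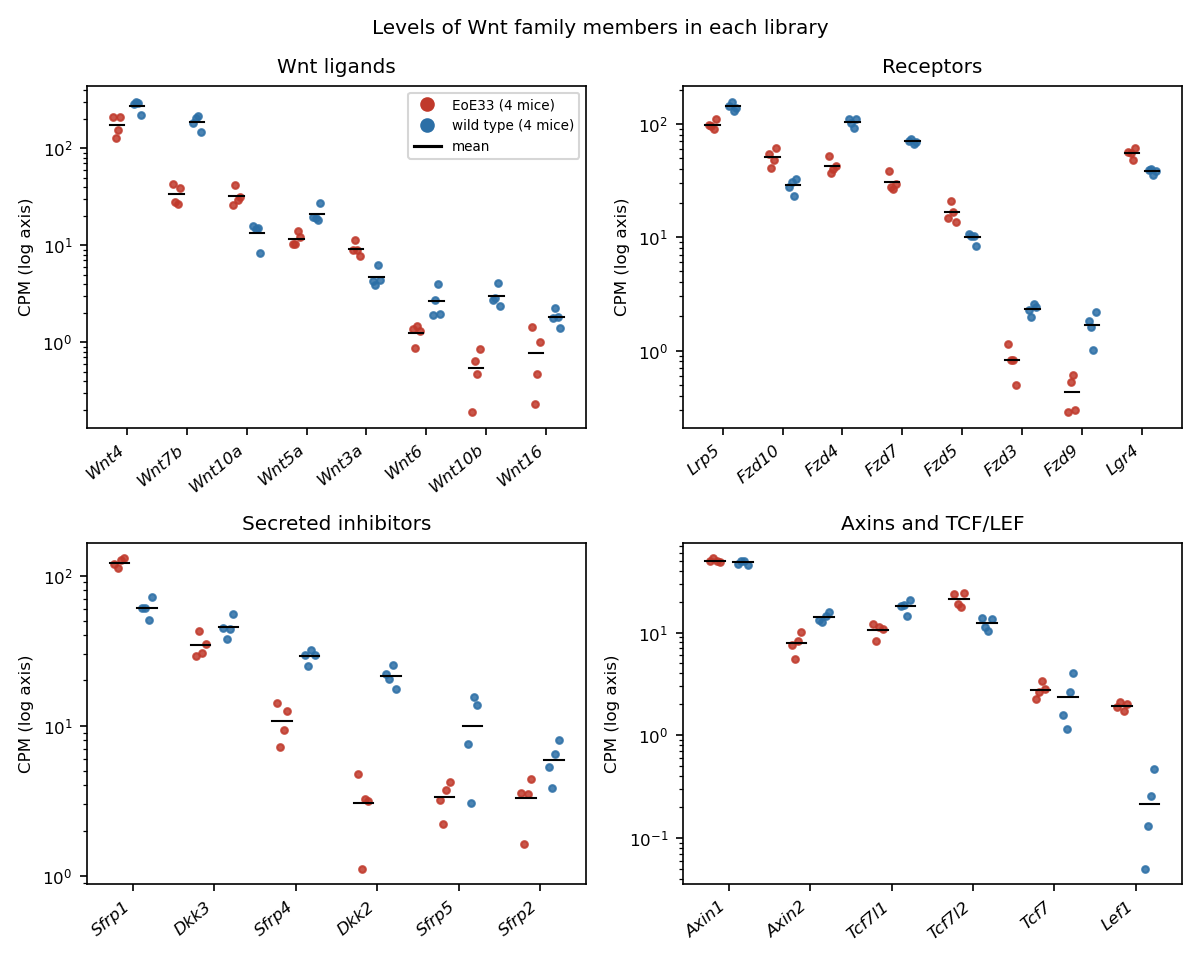
CPM (log axis) of members in each EoE33 (red) and wild type (blue) library, with the group mean as a bar. The wild type library with 0 counts of Lef1 is drawn at 0.05 CPM; Wnt7b, Dkk2, Fzd4, Fzd7 and Lef1 show groups that are well apart, and Axin1 and Tcf7 show groups that overlap.

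The Frizzled receptors, cell surface proteins that bind Wnts, changed in both directions, and the makeup of their pool differed between groups. All 12 Frizzled and LRP genes were tested, of which Fzd5 and Fzd10 were higher, 6 were lower and 4 did not pass. In shares, 16.7% were higher and 50% lower, against 31.3% and 32.1% of all genes tested. The summed Frizzled level was 63.6 ± 6.19 in EoE33 and 73.5 ± 4.52 in wild type (CPM per kb, n = 4 each, SD), and these sums overlapped. Fzd10 held 24.6% ± 2.62 in EoE33 and 11.9% ± 1.01 in wild type of that pool, Fzd4 held 9.97% ± 0.743 in EoE33 and 20.9% ± 0.918 in wild type and Fzd7 held 10.6% ± 1.08 in EoE33 and 20.95% ± 0.893 in wild type (n = 4 each, SD).

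Fzd4 (ENSMUSG00000049791, chromosome 7 from 89404355 to 89413134), a receptor for Wnts and for Norrin that is known from the retinal vasculature, had 52.2, 36.6, 39.5 and 42.7 CPM in EoE33 and 111, 102, 91.5 and 109 CPM in wild type. Fzd7 (ENSMUSG00000041075, chromosome 1 from 59482424 to 59486955), a receptor known from intestinal stem cells and from muscle stem cells, had 38.6, 27.5, 26.8 and 29.7 CPM in EoE33 and 70.7, 72.7, 66.05 and 69.3 CPM in wild type. Both were lower in every EoE33 library by a margin larger than the spread within either group. Fzd4 fell 2.42-fold (log2 fold change −1.27 ± 0.11 SE, adjusted p = 1.57e-05 by edgeR) and Fzd7 fell 2.27-fold (log2 fold change −1.19 ± 0.11 SE, adjusted p = 2.32e-05 by edgeR). The median log2 fold change was −0.24 over the 6 endothelial markers and −2.06 over the 8 skeletal muscle markers, and the part of those cells in these falls was not tested.

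Fzd10 (ENSMUSG00000081683, chromosome 5 from 128600844 to 128604093) had 53.8, 40.6, 48.2 and 61.1 CPM in EoE33 and 27.9, 30.6, 23.2 and 32.5 CPM in wild type, with no overlap. It rose 1.78-fold (log2 fold change 0.83 ± 0.14 SE, adjusted p = 0.000727 by edgeR). Fzd5 (ENSMUSG00000045005, chromosome 1 from 64730558 to 64737751), a receptor expressed in gut epithelium, had 14.8, 21.01, 16.7 and 13.6 CPM in EoE33 and 10.7, 10.3, 10.2 and 8.395 CPM in wild type. It rose 1.66-fold (log2 fold change 0.73 ± 0.15 SE, adjusted p = 0.00194 by edgeR). Per kb of exon, Fzd10 had a level of 15.7 in EoE33 and 8.79 in wild type, the highest mean of the Frizzleds in EoE33, where its range overlapped that of Fzd6, the next (14.5 in EoE33 and 14.4 in wild type). On the same scale Fzd4 had 6.36 in EoE33 and 15.4 in wild type and Fzd7 had 6.76 in EoE33 and 15.4 in wild type. Fzd4 and Fzd7 could not be told apart in wild type, where their levels were nearly equal.

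The weakly expressed Fzd3 and Fzd9 fell as well. Fzd3 (ENSMUSG00000007989, chromosome 14 from 65192449 to 65262463), a receptor with roles in axon guidance and planar cell polarity, had 1.15, 0.819, 0.82 and 0.499 CPM in EoE33 and 2.29, 1.98, 2.58 and 2.399 CPM in wild type, with a log2 fold change of −1.48 ± 0.25 (SE; adjusted p = 0.000739 by edgeR). Fzd9 (ENSMUSG00000049551, chromosome 5 from 135248938 to 135251230) had 0.286, 0.527, 0.604 and 0.3 CPM in EoE33 and 1.82, 1.63, 1.02 and 2.18 CPM in wild type, with a log2 fold change of −1.94 ± 0.34 (SE; adjusted p = 0.000925 by edgeR). Neither gene overlapped between groups. These low levels rest on 67 and 35 counts over the EoE33 libraries.

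Fzd6 and Fzd1 were the most abundant Frizzleds that did not pass. Fzd6, known for the orientation of hair follicles, had 63.4 to 76.7 CPM in EoE33 and 65.1 to 72.9 CPM in wild type, with a log2 fold change of 0.00897 and a narrow 95% interval of −0.17 to 0.19. The log2 fold change of Fzd1 was 0.19 (95% interval −0.06 to 0.44), of Fzd2 −0.26 (95% interval −0.79 to 0.27) and of Fzd8 −0.34 (95% interval −0.67 to −0.01). Fzd8 passed without wild type replicate 3 (edgeR adjusted p = 0.0273). Of the co-receptors, Lrp5 (ENSMUSG00000024913, chromosome 19 from 3584828 to 3686564) had 97.3, 94.6, 89.6 and 109.8 CPM in EoE33 and 145, 157, 128 and 138 CPM in wild type and fell without overlap (log2 fold change −0.54 ± 0.09 SE, adjusted p = 0.000499 by edgeR). Lrp6 passed narrowly and with a slight overlap, with 62.5 to 84.5 CPM in EoE33 and 84.4 to 91.1 CPM in wild type, and had a log2 fold change of −0.25 (adjusted p = 0.0325 by edgeR). Its call was lost without wild type replicate 1, 2 or 4 (edgeR adjusted p = 0.0684, 0.0908 and 0.0553) and without EoE33 replicate 1, 3 or 4 (0.054, 0.0636 and 0.0607).

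Among the R-spondins and their receptors, Lgr4 and Rspo4 were higher, Lgr6 was lower and 4 of 7 genes did not pass. In shares, 28.6% were higher and 14.3% lower, against 31.3% and 32.1% of all genes tested. Lgr4 (ENSMUSG00000050199, chromosome 2 from 109917647 to 110014257), the broadly expressed R-spondin receptor, had 56.6, 54.7, 47.98 and 60.9 CPM in EoE33 and 39.2, 39.6, 35.6 and 38.4 CPM in wild type. Its groups did not overlap, and it rose 1.44-fold (log2 fold change 0.53 ± 0.08 SE, adjusted p = 0.000386 by edgeR). Per kb of exon its level was 9.36 in EoE33 and 6.49 in wild type, against 0.102 in EoE33 and 0.489 in wild type for Lgr6 and 0.071 in EoE33 and 0.0957 in wild type for Lgr5, the intestinal stem cell marker. Rspo4, known for nail formation, had 14, 12, 19 and 24 counts in the EoE33 libraries and 4, 5, 4 and 7 counts in the wild type libraries. The difference was 1.96 ± 0.33 on the log2 scale (SE; adjusted p = 0.000671 by edgeR), at a mean of 0.847 CPM in EoE33 and 0.215 CPM in wild type.

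Lgr6 (ENSMUSG00000042793, chromosome 1 from 134983301 to 135105276), a marker of hair follicle and skin stem cells, had 0.525, 0.351, 0.518 and 1.398 CPM in EoE33 and 1.99, 0.703, 8.04 and 2.66 CPM in wild type. The groups overlapped, and wild type replicate 3, the library with airway transcripts, stood far above the rest. The log2 difference was −2.25 ± 0.76 (SE; adjusted p = 0.0289 by edgeR). Without wild type replicate 3 it was −1.35 and did not pass (edgeR adjusted p = 0.0656). The call was also lost without EoE33 replicate 1, 2 or 3 (edgeR adjusted p = 0.0712, 0.0734 and 0.0776). For Lgr5 the log2 fold change was −0.40 (95% interval −1.68 to 0.88) at 62 counts over the EoE33 and 92 over the wild type libraries, a depth at which only large differences could be seen.

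Rspo1 and Rspo3 are R-spondins that mesenchymal cells are known to make. Rspo1 had 3.68, 3.804, 5.01 and 4.94 CPM in EoE33 and 4.92, 2.85, 8.89 and 12.5 CPM in wild type. Rspo3 had 2.29, 2.93, 2.37 and 1.897 CPM in EoE33 and 6.58, 3.12, 1.73 and 8.395 CPM in wild type. The EoE33 libraries were close together and the wild type libraries wide apart, and the groups overlapped. Rspo1 had a log2 fold change of −0.74 (adjusted p = 0.142 by edgeR) and Rspo3 of −1.06 (adjusted p = 0.0644 by edgeR). Without wild type replicate 2 the adjusted p of Rspo1 was 0.0204, and without wild type replicate 3 that of Rspo3 was 0.00678. Among the wild type libraries, Rspo1, like Wnt2b and the mesothelial markers, was highest in replicates 3 and 4 and lowest in replicate 2, and the part of those cells was not tested. Rspo2 had 35 counts in EoE33 and 33 in wild type, with a log2 fold change of 0.26 (95% interval −0.89 to 1.42).

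Of the secreted inhibitors that could be tested, Sfrp1 rose and the other 5 fell, a count that was not stable. Over all genes tested, 31.3% were higher and 32.1% lower. Dkk2 and Sfrp4 were lower under every alternative run. The number lower was 3 in place of 5 without wild type replicate 1, 3 or 4 or without EoE33 replicate 1, 2 or 3, each left out alone, and 2 without wild type libraries 1 and 3 together. Per kb of exon, the summed level of the 9 inhibitors was 44.8 ± 2.58 in EoE33 and 48.2 ± 6.59 in wild type (CPM per kb, n = 4 each, SD), and these sums overlapped between groups. Sfrp1 made up 62.1% ± 1.78 in EoE33 and 29.2% ± 4.89 in wild type of it (n = 4 each, SD). Sfrp1 (ENSMUSG00000031548, chromosome 8 from 23411502 to 23449632), a secreted Frizzled-like protein that binds Wnts, had 119, 112, 126 and 130.3 CPM in EoE33 and 60.8, 60.9, 50.2 and 72.4 CPM in wild type. Every EoE33 library was well above every wild type library, and Sfrp1 rose 1.99-fold (log2 fold change 0.99 ± 0.11 SE, adjusted p = 4.7e-05 by edgeR).

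Dkk2 (ENSMUSG00000028031, chromosome 3 from 132085292 to 132180304), which binds LRP5 and LRP6, had the largest fall of the inhibitors. It had 4.77, 1.11, 3.24 and 3.15 CPM in EoE33 and 22.1, 20.3, 25.5 and 17.4 CPM in wild type. The highest EoE33 library was more than 3 times below the lowest wild type library, and Dkk2 fell 6.87-fold (log2 fold change −2.78 ± 0.34 SE, adjusted p = 0.000128 by edgeR). Sfrp4 (ENSMUSG00000021319, chromosome 13 from 19623104 to 19632994), an inhibitor known from bone and connective tissue, had 14.2, 7.199, 9.41 and 12.4 CPM in EoE33 and 29.4, 25.1, 31.9 and 29.7 CPM in wild type. It fell 2.68-fold without overlap (log2 fold change −1.42 ± 0.19 SE, adjusted p = 0.000193 by edgeR). Fibroblast markers, which were also lower, had a median log2 fold change of −0.79 over 8 markers, and their part in these falls was not tested.

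Sfrp5 (ENSMUSG00000018822, chromosome 19 from 42197971 to 42202252), an inhibitor known from adipose tissue and foregut, had 3.199, 2.22, 3.71 and 4.24 CPM in EoE33 and 7.55, 3.07, 15.6 and 13.8 CPM in wild type. Wild type replicate 2, which held the least mesothelial marker RNA of the wild type libraries, lay within the EoE33 range, and replicates 3 and 4, which held the most, were highest. The part of mesothelial cells in the Sfrp5 difference was not tested. The log2 difference was −1.57 ± 0.47 (SE; adjusted p = 0.0174 by edgeR). The adjusted p was 0.0503 without EoE33 replicate 2 and 0.0817 without wild type libraries 1 and 3.

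Sfrp2 and Dkk3 passed narrowly and with overlap. Sfrp2 (ENSMUSG00000027996, chromosome 3 from 83766321 to 83774316), a Wnt modulator of fibroblasts, had 3.53, 1.64, 3.495 and 4.44 CPM in EoE33 and 5.26, 3.82, 6.43 and 8.05 CPM in wild type (log2 fold change −0.84 ± 0.31 SE, adjusted p = 0.0403 by edgeR). Its call was lost without wild type replicate 1, 3 or 4 (edgeR adjusted p = 0.059, 0.0798 and 0.109) and without EoE33 replicate 1, 2 or 3 (0.0672, 0.06 and 0.0747). Dkk3 (ENSMUSG00000030772, chromosome 7 from 112116017 to 112159057), a divergent Dkk protein, had 29.2, 42.9, 30.3 and 34.95 CPM in EoE33 and 44.9, 37.8, 43.8 and 55.3 CPM in wild type (log2 fold change −0.41 ± 0.15 SE, adjusted p = 0.0366 by edgeR). The Dkk3 call was lost without wild type replicate 1, 3 or 4 (edgeR adjusted p = 0.0647, 0.0537 and 0.0891) and without EoE33 replicate 1, 3 or 4 (0.0921, 0.0974 and 0.0678). Dkk1 and Dkk4 had 0 counts in all 8 libraries, where the limit that a count of 0 allows, 3 counts, is 0.127 to 0.176 CPM in a library. Wif1, which binds Wnts outside the cell, had 6 counts over the libraries of each group.

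The Axins and TCF/LEF factors include the markers of pathway output, and Axin2 and Lef1 moved in opposite directions. Axin2 (ENSMUSG00000000142, chromosome 11 from 108920349 to 108950783), a scaffold of the β-catenin destruction complex and a target that many cells switch on when the pathway is active, had 7.496, 5.502, 8.28 and 10.04 CPM in EoE33 and 13.2, 12.7, 14.4 and 15.7 CPM in wild type. Every EoE33 library was below every wild type library, and Axin2 fell 1.79-fold (log2 fold change −0.84 ± 0.17 SE, adjusted p = 0.00206 by edgeR). Axin1, its constitutive relative, averaged 50.3 ± 1.76 CPM in EoE33 and 48.1 ± 2.25 CPM in wild type (n = 4 each, SD), and its log2 fold change was 0.0639 with a 95% interval of −0.07 to 0.20.

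Lef1 (ENSMUSG00000027985, chromosome 3 from 131110471 to 131224356), a TCF/LEF factor that β-catenin uses as an activator, had 39, 36, 40 and 40 counts in the EoE33 libraries and 0, 3, 6 and 11 counts in the wild type libraries. As CPM these were 1.86, 2.11, 1.73 and 1.997 in EoE33 and 0, 0.132, 0.254 and 0.471 in wild type, a low but separate pair of ranges. The difference was 3.13 ± 0.55 on the log2 scale (SE; adjusted p = 0.00089 by edgeR), and 3.84 without wild type replicate 4, which held the most wild type counts. Lef1 is also expressed by T cells. T cell markers summed to 7.199 to 11.3 CPM in EoE33 and 1.84 to 9.12 CPM in wild type. Among the wild type libraries the sum was highest in replicate 4, as Lef1 was. Among the EoE33 libraries it was lowest in replicate 2, where Lef1 was highest. The part of T cells in the rise was not tested. Tcf7, the TCF factor that T cells use most, averaged 2.77 ± 0.468 CPM in EoE33 and 2.34 ± 1.28 CPM in wild type (n = 4 each, SD) with a log2 fold change of 0.24 (95% interval −0.57 to 1.06, edgeR adjusted p = 0.573). Gm43352, an antisense gene that covers 13.7% of the Lef1 exon length, had 15 counts over the EoE33 libraries and 0 over the wild type libraries. Whether counting used strand is not given in the sources used here, so its reads and those of Lef1 cannot be told apart in the shared part. The same holds for the other 9 members that share exon bases with a gene on the opposite strand, among them Wnt7b, Wnt5a, Fzd5, Sfrp2, Axin2 and Tcf7l1, whose partners had at most 50 counts over the EoE33 libraries and 63 over the wild type libraries.

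Tcf7l1 and Tcf7l2 also moved apart from each other. Tcf7l1 (ENSMUSG00000055799, chromosome 6 from 72626378 to 72789254), which often acts as a repressor and is known from skin stem cells, had 12.03, 8.31, 11.2 and 10.9 CPM in EoE33 and 18.1, 18.7, 14.5 and 20.8 CPM in wild type, and fell without overlap (log2 fold change −0.76 ± 0.14 SE, adjusted p = 0.00139 by edgeR). Tcf7l2 (ENSMUSG00000024985, chromosome 19 from 55741820 to 55933654), the main TCF factor of intestinal epithelium, had 23.5, 19.1, 17.6 and 24.4 CPM in EoE33 and 13.96, 11.2, 10.4 and 13.4 CPM in wild type, and rose without overlap (log2 fold change 0.79 ± 0.14 SE, adjusted p = 0.000983 by edgeR). Per kb of exon, Tcf7l1 made up 42.2% ± 3.396 in EoE33 and 66.7% ± 5.03 in wild type of the TCF/LEF pool and Tcf7l2 37.7% ± 4.09 in EoE33 and 20.3% ± 2.21 in wild type (n = 4 each, SD). Lef1 made up 3.46% ± 0.588 in EoE33 and 0.339% ± 0.282 in wild type of it (n = 4 each, SD). The sum of the 4 factors was 6.39 ± 0.62 in EoE33 and 6.9004 ± 1.07 in wild type (CPM per kb, n = 4 each, SD), with overlap.

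Promoter windows of RefSeq (GRCm38.p6), from 250 bases before to 50 bases after a transcription start, were found for 35 of the 53 members, in 43 windows. They were searched for the core of the TCF/LEF motif, CTTTGA, and for the core of the STAT6 motif, which is TTC and GAA separated by 4 bases of any kind, on both strands. STAT6 is the factor activated by IL-4 and IL-13. No window shown holds both motifs, so their matches do not overlap. The TCF/LEF core was in 5 of the 43 member windows, 11.6%, against 16% of all 32851 windows of the same length. The STAT6 core was in 3 member windows, 6.98%, against 6.95% of all windows. The median GC content was 67.3% over the member windows and 52.7% over all windows. The windows shown are that of Axin2, 3 of the 4 windows of Lef1 and those of the other called members with a match, with the matched letters in capitals. The Lef1 window left out, of the most upstream start, largely overlaps the first one shown and holds neither motif. A match is a run of letters and not a measured binding site.

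Axin2, chr11:108920099-108920398, plus strand, which holds neither motif: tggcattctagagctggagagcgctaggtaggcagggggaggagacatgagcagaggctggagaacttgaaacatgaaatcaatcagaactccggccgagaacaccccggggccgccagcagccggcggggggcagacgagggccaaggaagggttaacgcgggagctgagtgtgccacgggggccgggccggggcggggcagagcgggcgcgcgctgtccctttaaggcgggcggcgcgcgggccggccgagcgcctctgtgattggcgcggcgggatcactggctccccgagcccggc
Lef1, chr3:131110073-131110372, plus strand, the second of the upstream starts, which holds neither motif: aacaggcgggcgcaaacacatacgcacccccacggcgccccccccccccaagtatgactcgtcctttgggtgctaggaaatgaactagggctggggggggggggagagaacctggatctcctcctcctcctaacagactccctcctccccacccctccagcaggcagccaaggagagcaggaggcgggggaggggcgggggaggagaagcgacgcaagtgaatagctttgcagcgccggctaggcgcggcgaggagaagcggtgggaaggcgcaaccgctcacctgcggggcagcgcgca
Lef1, chr3:131112541-131112840, plus strand, an internal start with 1 STAT6 core match: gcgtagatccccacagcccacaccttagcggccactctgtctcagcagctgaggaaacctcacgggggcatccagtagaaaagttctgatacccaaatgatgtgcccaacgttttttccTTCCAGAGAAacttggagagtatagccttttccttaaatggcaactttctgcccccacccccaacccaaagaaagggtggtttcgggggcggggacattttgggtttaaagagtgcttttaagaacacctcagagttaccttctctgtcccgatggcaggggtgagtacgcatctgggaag
Lef1, chr3:131156044-131156343, plus strand, an internal start with 2 TCF/LEF core matches: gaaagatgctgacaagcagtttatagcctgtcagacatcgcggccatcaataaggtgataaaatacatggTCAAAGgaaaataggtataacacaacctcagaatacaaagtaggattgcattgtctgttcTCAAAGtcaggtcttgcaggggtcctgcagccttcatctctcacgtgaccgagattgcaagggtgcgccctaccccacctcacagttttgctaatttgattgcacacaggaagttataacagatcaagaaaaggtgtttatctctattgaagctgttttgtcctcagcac
Lgr4, chr2:109917397-109917696, plus strand, with 1 STAT6 core match: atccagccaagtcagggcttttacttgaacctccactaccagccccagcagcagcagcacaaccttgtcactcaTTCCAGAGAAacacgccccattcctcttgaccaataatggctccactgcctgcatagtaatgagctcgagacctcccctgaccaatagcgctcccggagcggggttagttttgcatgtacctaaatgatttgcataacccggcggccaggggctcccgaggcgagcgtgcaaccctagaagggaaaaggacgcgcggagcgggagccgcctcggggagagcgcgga
Fzd9, chr5:135250998-135251297, minus strand, with 1 STAT6 core match: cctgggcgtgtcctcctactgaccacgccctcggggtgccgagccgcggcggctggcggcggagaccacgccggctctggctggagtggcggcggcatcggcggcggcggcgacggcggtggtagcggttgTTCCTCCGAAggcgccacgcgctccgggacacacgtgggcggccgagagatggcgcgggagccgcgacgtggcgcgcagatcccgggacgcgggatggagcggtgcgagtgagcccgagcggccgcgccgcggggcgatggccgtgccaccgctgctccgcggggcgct
Wnt11, chr7:98834862-98835161, plus strand, with 1 TCF/LEF core match: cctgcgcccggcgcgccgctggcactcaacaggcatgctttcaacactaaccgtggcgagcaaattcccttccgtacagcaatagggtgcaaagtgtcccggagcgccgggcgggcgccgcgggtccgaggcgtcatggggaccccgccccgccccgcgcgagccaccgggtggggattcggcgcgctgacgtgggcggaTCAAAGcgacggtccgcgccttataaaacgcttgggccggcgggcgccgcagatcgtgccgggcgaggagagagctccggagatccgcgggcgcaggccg

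Of the windows shown, those of Lef1 and Lgr4 belong to genes that rose and those of Axin2, Fzd9 and Wnt11 to genes that fell. The matches of Lef1 lay at its internal starts, 2320 and 45823 bases from the 5′ end of the annotated gene, and gene counts do not show which start was used. The same 10 letters matched the STAT6 core in Lef1 and in Lgr4.

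The other genes of the pathway came from lists of textbook roles, and 22 of 72 tested genes were higher, 28 lower and 22 not called, or 69.4% called, where 63.4% of all genes were called. The processing and release of Wnt ligands changed in both directions. Porcn, the enzyme that attaches the lipid to Wnts, averaged 16.2 ± 4.46 CPM in EoE33 and 64.9 ± 13.4 CPM in wild type and fell 4.01-fold (n = 4 each, SD; log2 fold change −2.005 ± 0.22 SE, adjusted p = 7.28e-05 by edgeR). Wls, the carrier that brings lipid-bearing Wnts to the cell surface, averaged 176 ± 22.6 CPM in EoE33 and 107 ± 3.59 CPM in wild type and rose (n = 4 each, SD; log2 fold change 0.72, edgeR adjusted p = 0.000122). Trabd2b, a membrane protease that inactivates Wnts, fell (log2 fold change −1.65, edgeR adjusted p = 0.000118). Tmed5, of the early secretory pathway, did not pass (log2 fold change 0.0232, 95% interval −0.13 to 0.17), and Notum had too few counts to test.

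Other modulators outside the cell or at its surface were mostly lower, with 1 of 9 tested genes higher and 6 lower. Over all genes tested, 31.3% were higher and 32.1% lower. Dkkl1, a relative of the Dkk inhibitors, had 2.39, 0.819, 1.596 and 4.39 CPM in EoE33 and 41.4, 43.5, 41.4 and 38.5 CPM in wild type. It fell 17.7-fold (log2 fold change −4.15 ± 0.38 SE, adjusted p = 3.28e-05 by edgeR), a larger fall than that of any member. Kremen1 and Kremen2, which act with Dkk proteins on LRP6, fell with log2 fold changes of −0.65 and −2.14 (edgeR adjusted p = 3.87e-05 and 1.77e-05). Frzb, Sostdc1 and Gpc4 fell too, with log2 fold changes of −0.66, −1.60 and −0.52. Apcdd1, an inhibitor and a target of the pathway, was higher (log2 fold change 0.30, edgeR adjusted p = 0.0436), but the call was lost without any single library except EoE33 replicate 2, with an adjusted p of 0.0529 to 0.0991. Gpc3 and Tspan12 did not pass, and Sost and Ndp had too few counts to test. Rnf43 and Znrf3, the ubiquitin ligases that remove Frizzleds and whose genes are themselves pathway targets, rose with log2 fold changes of 0.82 and 0.40 (edgeR adjusted p = 0.00125 and 0.00496). For Znrf3 the adjusted p was 0.0635 without wild type libraries 1 and 3.

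**Figure D5:**
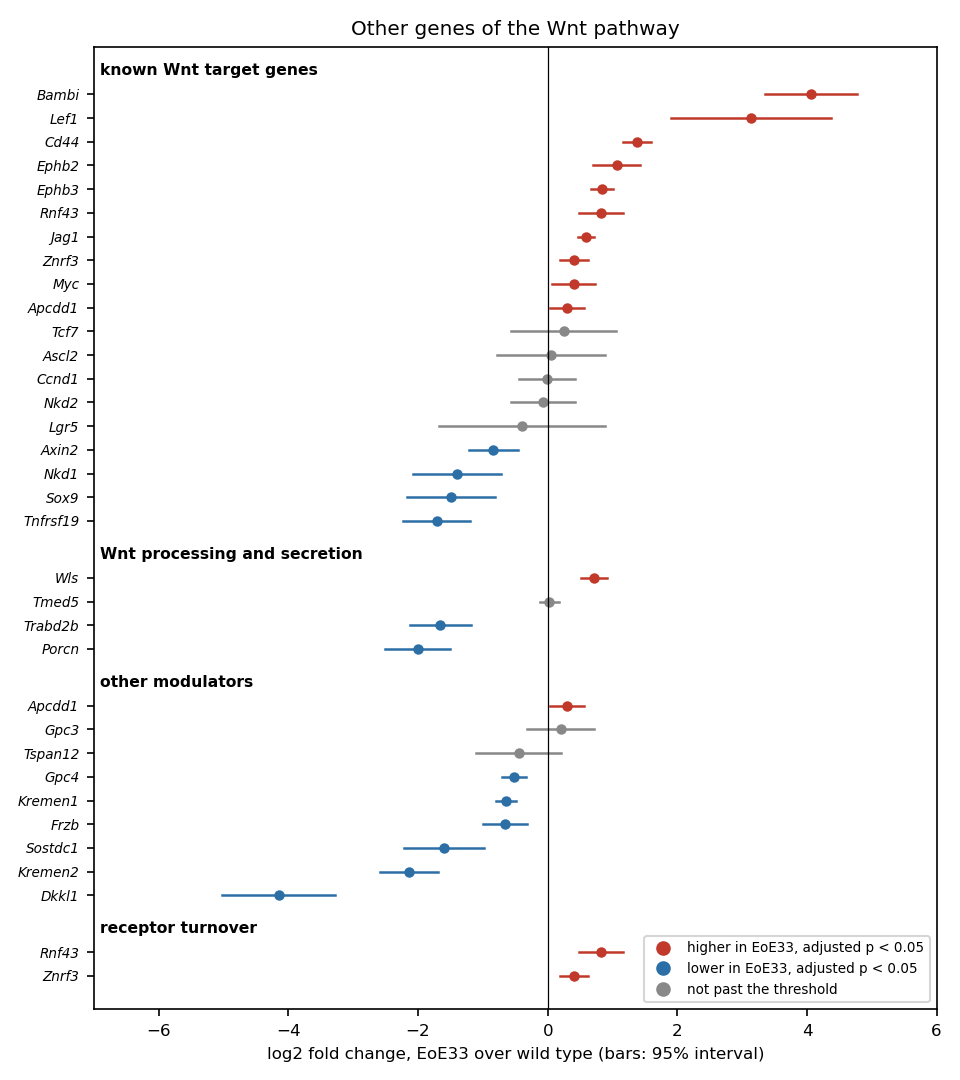
Log2 fold change of EoE33 over wild type with its 95% interval for tested genes of 4 pathway lists, coloured by call. Bambi and Lef1 lie farthest to the right among the target genes, Dkkl1 lies farthest to the left, and target genes fall on both sides of 0.

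In the cytoplasm 6 of 19 genes were higher and 6 lower, close to the 31.3% and 32.1% of all genes tested. Ctnnb1, which encodes β-catenin, averaged 768 ± 17.4 CPM in EoE33 and 495 ± 24.1 CPM in wild type (n = 4 each, SD) and rose 1.55-fold (log2 fold change 0.64 ± 0.07 SE, adjusted p = 3.83e-05 by edgeR). β-catenin is also a part of adherens junctions, and RNA does not show its amount or place in the cell. Csnk1e, a kinase gene of the pathway, and Ctnnbip1, whose protein blocks the contact of β-catenin with TCF factors, fell with log2 fold changes of −0.79 and −1.54 (edgeR adjusted p = 0.00011 and 0.000527). Csnk1a1, a kinase gene that marks β-catenin for destruction, did not pass (log2 fold change 0.13, 95% interval −0.07 to 0.33). Of 11 nuclear cofactors 2 were higher and 5 lower, and 1 was higher without wild type replicate 1 or 4 or without EoE33 replicate 1 or 4. Pygo1 fell and Pygo2 rose, with log2 fold changes of −1.75 and 0.41 (edgeR adjusted p = 1.35e-05 and 0.000369), although both encode proteins that join β-catenin through Bcl9. Tle1, a corepressor gene, fell (log2 fold change −0.75, edgeR adjusted p = 0.000154), and Ctbp1 did not pass (log2 fold change −0.0285, 95% interval −0.14 to 0.09).

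Among 15 genes of β-catenin-independent receptors and cell polarity, 4 were higher and 6 lower, where 31.3% and 32.1% of all genes tested were. Vangl1 and Ptk7, of the planar cell polarity pathway, rose with log2 fold changes of 1.30 and 0.91 (edgeR adjusted p = 4.59e-06 and 3.51e-05). Musk, the receptor of the neuromuscular junction, fell with a log2 fold change of −1.95 (adjusted p = 1.97e-06 by edgeR), beside a median of −2.06 over the 8 skeletal muscle markers. Ryk did not pass (log2 fold change −0.0998, 95% interval −0.22 to 0.02).

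Genes known as Wnt targets did not move as one. Of 21 listed genes, members included, 19 were tested, of which 10 were higher, 4 lower and 5 not called. Over all genes tested, 31.3% were higher and 32.1% lower. The median log2 fold change was 0.30 over the 19 tested targets and −0.01 over all genes tested. Bambi, which encodes a decoy receptor of TGF-β signalling, had 38.1, 19.5, 36.1 and 42.2 CPM in EoE33 and 1.61, 1.41, 2.12 and 2.998 CPM in wild type and rose 16.7-fold (log2 fold change 4.06 ± 0.31 SE, adjusted p = 1.01e-05 by edgeR). Cd44, a hyaluronan receptor gene also expressed by leukocytes and basal keratinocytes, rose 2.59-fold (edgeR adjusted p = 3.84e-06), and Ephb3 and Ephb2, ephrin receptor genes, rose 1.78-fold and 2.09-fold (edgeR adjusted p = 1.6e-05 and 0.000383). The 4 that fell were Axin2, Nkd1, Tnfrsf19 and Sox9. All are on the list, and the last 3 were picked for naming after their values were seen. Nkd1, a feedback inhibitor of the pathway, had 9.12, 5.15, 7.85 and 8.94 CPM in EoE33 and 21.6, 16.998, 12.1 and 31.4 CPM in wild type (log2 fold change −1.40, edgeR adjusted p = 0.00336). Tnfrsf19, a receptor gene of intestinal stem cells, and Sox9, a transcription factor gene, had log2 fold changes of −1.71 and −1.49 (edgeR adjusted p = 0.000222 and 0.00211). Ccnd1, a cyclin gene, averaged 59.96 ± 17.4 CPM in EoE33 and 60.4 ± 6.01 CPM in wild type (n = 4 each, SD) and did not pass. Myc rose narrowly (log2 fold change 0.40, edgeR adjusted p = 0.0375), and its call was lost without wild type replicate 1, 2, 3 or 4 (edgeR adjusted p = 0.0811, 0.0565, 0.074 and 0.0737).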

How the data were processed

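The authors deposited 1 table of raw gene counts, with 49315 Ensembl identifiers and 8 columns, from polyA-selected RNA, per the labels' protocols. The submitters' processing notes name Trimmomatic 0.36, STAR 2.5.2b, featureCounts, Subread 1.5.2 and GRCm38, without their roles. Which annotation release was used, whether counting was stranded and how multimapping reads were handled is not given in the sources used here. Columns were assigned to samples by the spreadsheet letter in each sample's description. Symbols, coordinates and exon lengths (the union of exons) came from GENCODE M21 (GRCm38), which held 49056 of the identifiers. Every pair of replicates differed by more than sampling noise, with chi-square per degree of freedom between 10.4 and 70.1 within groups.

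Low-count genes were removed by filterByExpr of edgeR, and the rest were scaled by TMM and tested with glmQLFit (robust) and glmQLFTest in edgeR 4.0.16, genotype being the only term, with R 4.3.3. The procedure was tested on simulated data. Standard errors were derived from the F statistic. Exact permutation tests used SciPy 1.17.1. Alternatives were other scalings, DESeq2 1.42.0, limma-voom (limma 3.58.1), other count filters, a threshold of 0.01, a replicate block and leaving out libraries. Floors for counts of 0 cover counting error only. Named genes were, per role, called members with a mean of at least 1 CPM (up to 6 with the largest changes, with every library), Axin2 and Lef1, and the most abundant members not called, and of each other list the smallest p-values; levels in every library were also given for Wnt4, Wnt5a, Lrp5, Wnt2b, Rspo1, Rspo3, Dkkl1, Bambi and Nkd1. The members and lists were chosen with earlier results of these data known. Genes named outside this rule were chosen after their values were seen. The labels give no batch, and p-values set the difference between groups against the spread between these samples.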

Additional observations from a re-analysis of the deposited data

Results flagged for a closer look

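Of 88 groups of 4 libraries, 2 for each tested member, 3 held a library far from the others by Dixon's criterion, or 3.41%, where chance flags about 1 in 20. Wnt10a in wild type replicate 4 was at 8.44 CPM, against 14.9 to 15.7 CPM in the other wild type libraries. Wnt11 in wild type replicate 2 was at 14.2 CPM, against 11.9 to 12.2 CPM in the others. Lgr6 in EoE33 replicate 4 was at 1.40 CPM, against 0.351 to 0.525 CPM in the other EoE33 libraries.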

How the results depend on the processing

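Of the 30 called members, 22 kept their call and direction under every alternative run that tested them. The other 8 (Wnt4, Wnt11, Wnt16, Lrp6, Lgr6, Sfrp2, Sfrp5 and Dkk3) kept their direction. A stricter count filter removed Rspo4 and Fzd9, both among the 22, so they were not tested in that run. At an adjusted p under 0.01, 13 members were lower in place of 21; the stricter threshold alone causes this. Under every other alternative run, the counts over all members and over all other pathway genes stayed within 1.5 times. Counts of single groups moved more. Ligands lower were 4 in place of 7 at 0.01. Inhibitors lower were 3 in place of 5 without a count filter and 2 at 0.01. Cytoplasmic genes lower were 3 in place of 6 at 0.01. Some counts of 1 or 2 genes called in a single direction changed by 1 gene under at least 1 alternative. Among them were R-spondins and LGR receptors in either direction, and other modulators, receptor turnover and nuclear cofactors higher in EoE33. Replicate numbers gave no sign of pairing the mice: correlations of same-numbered libraries lay between −0.136 and 0.104. Those of differently numbered libraries lay between −0.118 and 0.152. Such correlations cannot show that the mice were unpaired. With the replicate number as a block, Wnt16 and Dkk3 were no longer called (edgeR adjusted p = 0.0632 and 0.0614), nor was Apcdd1 (0.0501), and Wnt2 and Wnt2b were (0.0417 and 0.0108). Lgr6 and Sfrp5 did not pass with limma-voom (adjusted p = 0.0914 and 0.0821), nor did Apcdd1 (0.0513). Without a count filter Lrp6, Lgr6, Sfrp2 and Sfrp5 were not called (edgeR adjusted p = 0.0506, 0.0845, 0.0578 and 0.0603). Without wild type libraries 1 and 3, all 8 of those members except Wnt11 lost their call, as did Apcdd1, Znrf3 and Myc, with fewer libraries in the fit. The log2 fold changes were −1.22 for Wnt16 (with all libraries −1.20), −0.28 for Lrp6 (with all libraries −0.25), −0.86 for Sfrp2 (with all libraries −0.84), −0.45 for Dkk3 (with all libraries −0.41), −0.58 for Wnt4 (with all libraries −0.65), −1.34 for Sfrp5 (with all libraries −1.57) and −1.26 for Lgr6 (with all libraries −2.25). With DESeq2, Wnt2b and Rspo3 were called (adjusted p = 0.0383 and 0.0295). Some log2 fold changes of genes that did not pass changed sign, and the cause was not tested. With 1 library left out, the ranges were −0.0233 to 0.24 for Wnt5b, −0.037 to 0.0625 for Fzd6, −0.11 to 0.54 for Rspo2, −0.0165 to 0.0617 for Tmed5, −0.20 to 0.0811 for Nkd2, −0.19 to 0.10 for Ccnd1 and −0.23 to 0.33 for Ascl2. Without wild type libraries 1 and 3 the log2 fold change was −0.0375 for Wnt5b and 0.0677 for Ccnd1. With library size only it was −0.012 for Fzd6. For Ccnd1 it was 0.00418 with DESeq2 size factors, 0.00442 with DESeq2 and 0.00512 without a count filter. Depth limits Wnt2, Wnt10b, Wnt16, Fzd3, Fzd9, Rspo2, Rspo4, Lgr5, Lgr6 and Lef1, which had under 100 counts in at least 1 group.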
